A study of Mus musculus with 5 samples.

Results

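The proneural basic helix-loop-helix (bHLH) factors followed here are 9 genes, chosen by symbol from a table of 49875 gene IDs: Neurog1, Neurog2, Neurod1, Neurod2, Neurod4, Neurod6, Bhlhe22, Nhlh1 and Nhlh2. All 9 were found, each as 1 gene ID. The table came from RNA immunoprecipitation of the cap-binding protein eIF4E in wild-type mouse neocortex at stage E13.5. Dissociated cortical cells were lysed with the detergent NP-40 and centrifuged, and the cytoplasmic supernatant was kept. Its RNA was sequenced directly (Input, 2 libraries), after precipitation with an anti-eIF4E antibody (2 libraries), or after precipitation with rabbit control immunoglobulin G (IgG, 1 library). All 5 libraries came from wild-type tissue, which the sample attributes call forebrain and the titles neocortex. Replicates are titled biological for eIF4E and Input, but embryos and pools are not named, so p-values measure only the spread between these libraries.

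A bHLH factor binds DNA as a dimer, usually with an E protein. Neurog1 and Neurog2 act first in cortical progenitors, where they start the program of glutamatergic neurons and induce Notch ligands. Neurod1 and Neurod4 follow in intermediate progenitors and newborn neurons, and Neurod2 and Neurod6 are carried by postmitotic excitatory neurons. Bhlhe22 is a repressor of postmitotic cortical neurons, and Nhlh1 and Nhlh2 are small bHLH factors of newborn neurons. Id proteins sequester E proteins, and Hes and Hey proteins repress proneural genes below Notch. eIF4E holds the 5′ cap of an mRNA and can either start translation, with eIF4G, or keep the mRNA silent, with repressors such as 4E-T. Silencing of proneural mRNAs by 4E-T has been described in cortical precursors, which makes their share in an eIF4E precipitate of interest.

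The cap sits on the first transcribed base, so the annotated start sites are shown for the members that the RefSeq promoter table (GRCm38.p6) held, which were 8 of the 9. Bhlhe22 had no entry. Each line gives 20 bases before the table's start and 10 from it on, 5′ to 3′ on the gene's own strand, with the first 5 bases from that start in capitals. Neurod4 had 2 starts in the table. The start given for Neurog2 lies 403 bases inside the gene's RefSeq span, that of Nhlh2 34 bases inside and the downstream start of Neurod4 116 bases inside, so these need not be the first transcribed bases. The other 6 coincide with the end of the span.
Neurog1, chr13:56252171-56252200, minus strand: ggtcctgaggccggtcgtgtGCCACacttg
Neurog2, chr3:127633116-127633145, plus strand: ggttttaaggagagtcgtgtGCCAGacacg
Neurod1, chr2:79456627-79456656, minus strand: agcgcccgcgccaccgggacACGAGgaatt
Neurod2, chr11:98329636-98329665, minus strand: gcccatatggcctggcatagAGGCTggtac
Neurod4, upstream start, chr10:130280245-130280274, minus strand: gtcagcagccaaaaccagcaAAACGgcggc
Neurod4, downstream start, chr10:130280129-130280158, minus strand: aggtactgaaaagacatagaAAACCagctg
Neurod6, chr6:55681254-55681283, minus strand: gtgcagattttttccctatcAGTCTaacct
Nhlh1, chr1:172057587-172057616, minus strand: cacacagagaaggctgggccAGCTCaggtg
Nhlh2, chr3:102010125-102010154, plus strand: ttatctcttccaccatctccAGGCTaaatc

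From none of these 9 annotated starts did the sequence begin with C and 4 further pyrimidines. That is the form of a terminal oligopyrimidine (TOP) start, which 2.51% of 32851 annotated windows had at their start. Neurog1 and Neurog2 shared the run gtcgtgtGCCA, 11 bases long, across the starts that the table gives; among pairs from different genes it was the longest run shared in these windows. The motif TATAA stood 40 to 15 bases before the start on the gene's strand in Neurod1 and Neurog2 and in 3.52% of all windows. These are annotated starts, and where transcription began in these cells was not measured.

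By RefSeq coordinates (GRCm38.p6), the Neurogenin genes were Neurog1 on chromosome 13 (56250478 to 56252180) and Neurog2 on chromosome 3 (127632733 to 127635636). Neurod1 lies on chromosome 2 (79452637 to 79456636), Neurod2 on chromosome 11 (98325415 to 98329645), Neurod4 on chromosome 10 (130268152 to 130280254) and Neurod6 on chromosome 6 (55677818 to 55681263). Bhlhe22 (18054325 to 18057514) and Nhlh2 (102010111 to 102015492) are on chromosome 3, and Nhlh1 is on chromosome 1 (172052292 to 172057596). No other RefSeq gene overlapped any of them, which matters because the libraries did not mark strand. They are compact genes, spanning 1703 to 12103 bases with a median of 4000, and all 9 were shorter than the median of 21988 bases among the tested genes with a span (97.1% of 12769).

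The values are RSEM abundances per transcript length, TPM or FPKM. Depth is unknown from them, so no counting intervals are given. Column totals ran from 708778 to 848550 in the eIF4E and Input libraries and reached 560076 in IgG. Across the 12769 genes tested, replicate libraries correlated at r = 0.989 (eIF4E) and 0.993 (Input), across genes that are not independent replicates, whereas the IgG library stood apart (r = 0.593 to 0.707 with the other 4). Of 5403 genes above 10 in each eIF4E and Input library, IgG listed 360 at 0. None of the 9 members was at 0 in any library. The ventral marker Nkx2-1 was at 0 in all 5 libraries, whereas every radial glial and cortical neuron marker listed was above 0 in all 5. The 7 intermediate progenitor markers that are no members were likewise all above 0, except Penk in IgG.

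In Input the family spanned a wide range of abundance. Neurod6 led at 311.24 and 302.36, higher than 96.1% of tested genes. Neurod2 followed at 62.01 and 63.48. Neurog2 (57.93 and 57.91) and Neurog1 (57.96 and 53.47) came next and overlapped each other, so their order could not be told. Nhlh1 measured 39.06 and 36.99, Neurod1 13.36 and 15.16, and Nhlh2 8.51 and 7.42. Bhlhe22, at 1.92 and 1.95, and Neurod4, at 0.57 and 0.53, were the lowest, Neurod4 above 5.25% of tested genes only. All neighbours in this order other than the Neurogenins were separated in both libraries. The cytoplasmic pool of proneural mRNA was thus mostly Neurod6, which made up 56.3% and 56.1% of the summed abundance of the 9 genes. In these bulk samples fewer cells of a type and less RNA per cell cannot be told apart.

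**Figure D1:**
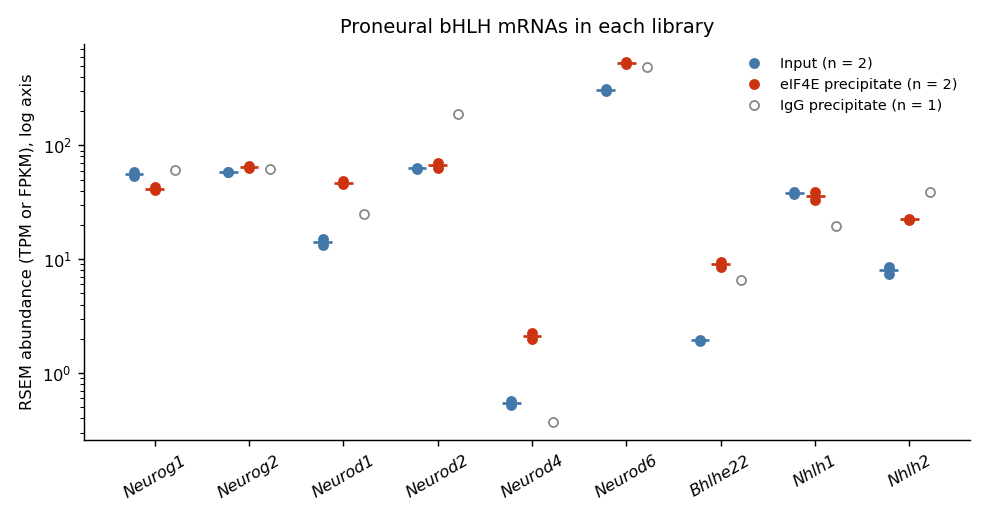
RSEM abundance (TPM or FPKM, log axis) of each proneural bHLH mRNA in each library; points are libraries and short bars are means of 2 libraries. Neurod6 is highest in all 5 libraries and Neurod4 lowest, and the eIF4E points lie well above Input for Neurod1, Bhlhe22, Nhlh2 and Neurod4.

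Setting eIF4E beside Input compares the share of each mRNA in the eIF4E precipitate with its share in the cytoplasm. RNA that came down without eIF4E enters this ratio as well, and IgG against Input is given further below for that reason. Neurod1, Neurod6, Bhlhe22 and Nhlh2 were higher in the eIF4E precipitate, by 1.72-fold to 3.43-fold. Neurog2 was higher by 1.11-fold and Neurog1 was lower, and Neurod2 and Nhlh1 did not pass the test. Of the 9 members, 6 were higher and 1 lower at an adjusted p under 0.05 (limma), against 43.3% and 30.6% of all 12769 genes (73.9% in either direction). Neurod4 reached the expression filter only through the eIF4E libraries and so had to differ; among the other 8 members 5 were higher and 1 lower. Their median log2 difference was 0.47, against 0.16 for all genes tested, and no test over the family was made. Of all calls 58.6% were higher, a share that was 45.7% by median-of-ratios scaling, 45.5% under quantile normalization and 70.3% after rescaling to the same total. The median of all genes moved with it, to −0.11, −0.11 and 0.36.

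Neurog1, which also specifies sensory neurons outside the cortex, measured 40.14 and 43.05 in eIF4E against 57.96 and 53.47 in Input. Both eIF4E libraries were lower than both Input libraries. It fell by 0.41 on the log2 scale of value + 1 (SE 0.07, 0.751 of Input, limma adjusted p = 0.0053), but rescaling all libraries to the same total ended the call (adjusted p = 0.0991). Neurog2, the main driver of cortical glutamatergic fate, measured 63.09 and 66.32 in eIF4E and 57.93 and 57.91 in Input. Its groups did not overlap, but the difference was small, 1.11-fold (log2 0.16, SE 0.05, adjusted p = 0.0482), and it turned to log2 −0.16 under median-of-ratios scaling. Leaving out eIF4E replicate 2, Input replicate 1 or Input replicate 2 ended its call (adjusted p = 0.118, 0.168 and 0.17).

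Neurod1, which drives the step from intermediate progenitor to neuron, measured 48.28 and 45.28 in eIF4E and 13.36 and 15.16 in Input. The groups were far apart, at 46.78 ± 2.12 against 14.26 ± 1.27 (SD, n = 2 each), a rise of 3.13-fold (log2 1.65, SE 0.09, limma adjusted p = 1.51e-04). This difference exceeded that of 89.1% of genes tested. Neurod4, a related factor of committed progenitors, stood at 1.98 and 2.27 in eIF4E and 0.57 and 0.53 in Input; it is close to the lowest level tested, and its 2.01-fold difference on the value + 1 scale depends on the added 1, with log2 values from 0.36 to 1.77 over the alternatives.

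Neurod6, the most abundant member, rose from 306.8 ± 6.28 in Input to 527.5 ± 15.6 in eIF4E (SD, n = 2 each; 516.5 and 538.58 in the eIF4E libraries). All eIF4E values lay above all Input values, and the rise was 1.72-fold (log2 0.78, SE 0.04, limma adjusted p = 1.73e-04). Its relative Neurod2, a calcium-responsive factor of maturing excitatory neurons, measured 69.91 and 63.79 in eIF4E and 62.01 and 63.48 in Input. The eIF4E values lay just above the Input values, and the difference did not pass the test (1.06-fold, 95% interval 0.947 to 1.19, adjusted p = 0.259). Scaling decided its direction: log2 0.33 after rescaling to the same total (adjusted p = 0.0067), and −0.23 by median-of-ratios scaling (adjusted p = 0.0211).

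Bhlhe22, which helps set the area identity of cortical neurons, went from 1.92 and 1.95 in Input to 9.54 and 8.62 in eIF4E. This difference, 3.43-fold on the value + 1 scale (log2 1.78, SE 0.10, limma adjusted p = 1.73e-04), was above that of 90.9% of genes tested. It depends on the added value, with log2 1.02 at a pseudocount of 5, below Neurod1 (1.43) and Nhlh2 (1.08), and 2.17 at 0.1. Nhlh2 rose likewise, from 8.51 and 7.42 to 22.27 and 22.61 (2.62-fold, log2 1.39, SE 0.09). Its paralog Nhlh1 did not: its eIF4E libraries, at 32.91 and 38.77, overlapped the Input libraries at 39.06 and 36.99. The fitted difference was 0.941-fold (95% interval 0.788 to 1.12, adjusted p = 0.451), and its sign turned after rescaling to the same total and without eIF4E replicate 1.

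**Figure D2:**
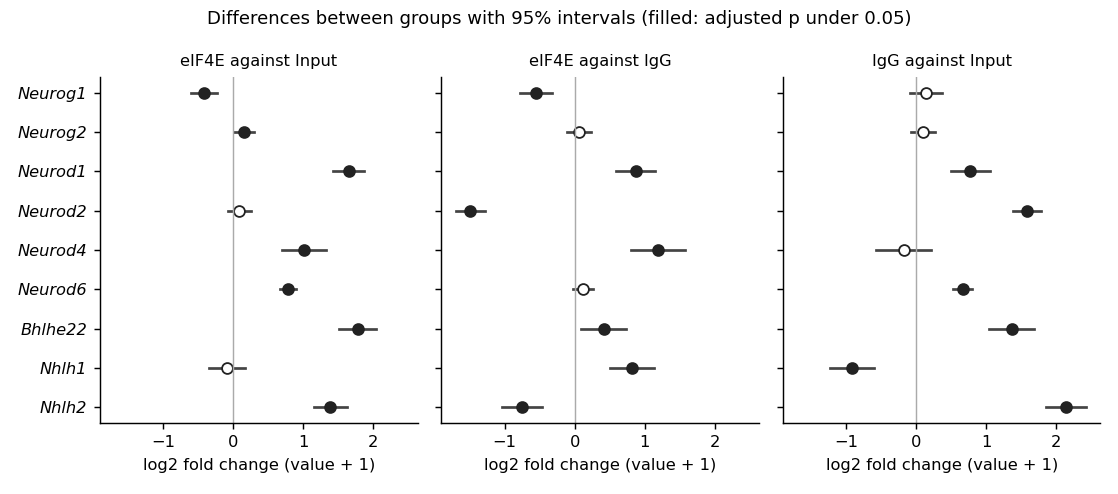
Fitted log2 difference (value + 1) of each member in each comparison, with 95% intervals from limma; filled points have an adjusted p under 0.05. Against Input the eIF4E values of Neurod1, Bhlhe22, Nhlh2 and Neurod4 (1.01) lie above 1, and those of Neurog2, Neurod2 and Nhlh1 lie close to 0.

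Ratios of 2 members within a library do not depend on how libraries are scaled to each other. Neurog2 and Neurog1 stood at a ratio of 0.999 and 1.08 in Input and 1.57 and 1.54 in eIF4E. The Neurogenins were thus even in the cytoplasm and uneven in the precipitate, and the IgG library, at 1.01, resembled Input. Neurod6 to Neurod2 went from 5.02 and 4.76 in Input to 7.39 and 8.44 in eIF4E, and was 2.56 in IgG. Neurod1 to Neurod2 went from 0.215 and 0.239 to 0.691 and 0.71, with IgG at 0.132. In the NHLH pair the more abundant paralog lost ground: Nhlh1 to Nhlh2 was 4.59 and 4.99 in Input, 1.48 and 1.71 in eIF4E and 0.511 in IgG. With 2 libraries against 2, the exact two-sided permutation p is 0.333, the smallest this design allows.

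**Figure D3:**
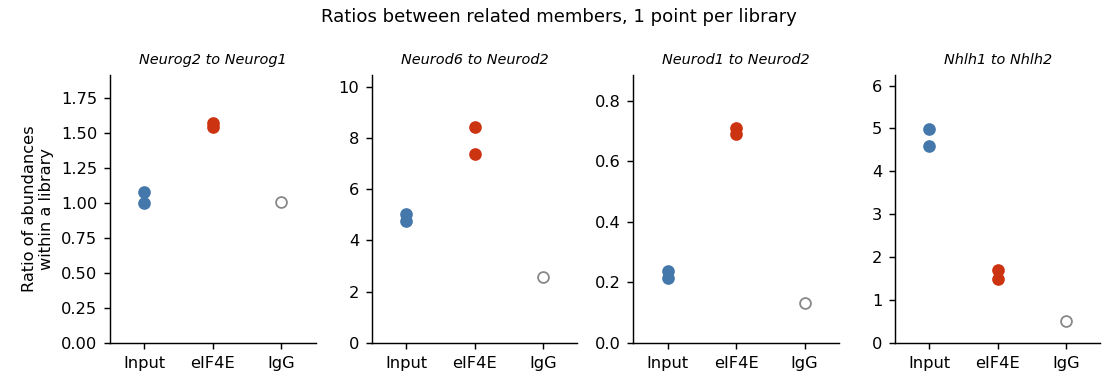
Ratio of the abundances of 2 related members within each library (linear axes from 0); 1 point per library. The eIF4E ratios lie above Input for Neurog2 to Neurog1, Neurod6 to Neurod2 and Neurod1 to Neurod2, and below Input for Nhlh1 to Nhlh2.

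The order of the members changed accordingly. In eIF4E Neurod6 remained first, and made up 64.2% and 64.9% of the summed abundance of the 9. Neurod2 and Neurog2 overlapped in the next places. Neurod1, below Neurog1 and Nhlh1 in Input, stood at 46.78, ahead of Neurog1 (41.6) and Nhlh1 (35.84), and these places were separated in both libraries. Nhlh2 (22.44), Bhlhe22 (9.08) and Neurod4 (2.125) kept the last places.

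The comparison of eIF4E with IgG asks whether the relative abundance differed from that in the control precipitate. The single IgG library is taken to vary as the replicated groups do. How much RNA each precipitate held is unknown, so a higher share does not mean more RNA than background. Neurod1, Nhlh1, Bhlhe22 and Neurod4 had higher values in eIF4E than in IgG, and Neurod2, Nhlh2 and Neurog1 had lower ones, although quantile normalization turned Neurod4. In all, 4 of the 9 were higher and 3 lower, against 53.1% and 30.6% of genes tested (83.8% in either direction), or 3 and 3 of the 8 without Neurod4. The median log2 difference of these 8 was 0.09, against 0.55 for all genes. Of all calls 63.4% were higher, against 48.8% under quantile normalization and 55.7% after rescaling to the same total.

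Neurod1 stood at 25.09 in IgG, between Input and eIF4E, so that eIF4E was 1.83-fold above it (log2 0.87, SE 0.11, limma adjusted p = 0.0012). Bhlhe22, at 6.56 in IgG, was 1.33-fold higher in eIF4E (adjusted p = 0.0273), a call that ended when eIF4E replicate 1 was dropped (adjusted p = 0.0903), under quantile normalization (0.234) and after rescaling to the same total (0.443). Nhlh1 was 19.72 in IgG, lower than in every other library, and 1.77-fold higher in eIF4E (adjusted p = 0.00223). Against Input, by contrast, Nhlh1 had not passed the test.

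Neurod2 showed the opposite pattern most strongly. IgG held 189.93, against at most 69.91 in any other library, so eIF4E was 0.355 of IgG (log2 −1.49, SE 0.08, limma adjusted p = 8.2e-05). Nhlh2 was also highest in IgG, at 38.58, and eIF4E was 0.592 of it (adjusted p = 0.00209). The rise of Nhlh2 over Input was thus larger in the control precipitate than with the eIF4E antibody. Neurog1 measured 61.27 in IgG and was lower in eIF4E (0.684 of IgG, adjusted p = 0.00307).

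Neurod6 and Neurog2 did not pass the test between the precipitates. Neurod6 was 486.66 in IgG, below both eIF4E libraries, at a fold of 1.08 (95% interval 0.983 to 1.19, adjusted p = 0.0993). Neurog2 was 62.17 in IgG, also below both eIF4E libraries, at a fold of 1.04 (0.923 to 1.17, adjusted p = 0.451). Both log2 differences turned negative after rescaling to the same total, at log2 −0.23 for Neurod6 (adjusted p = 0.0191) and −0.29 for Neurog2 (adjusted p = 0.0158), and under quantile normalization, at −0.55 (adjusted p = 8.58e-04) and −0.08 (adjusted p = 0.348). Neurod4 was 0.37 in IgG.

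The lone IgG library was also set against Input, as the background measured the same way. Neurod1, Neurod2, Neurod6, Bhlhe22 and Nhlh2 were higher in IgG and Nhlh1 was lower, against 37.8% and 50.3% of genes tested (88.1% in either direction). For the 8 members without Neurod4 the median log2 difference was 0.72 here, against −0.43 for all genes. In eIF4E against Input these medians were 0.47 and 0.16, so the family stood further above all genes in the control precipitate. Nhlh2 (4.42-fold, limma adjusted p = 4.81e-05) and Neurod2 (3.00-fold, adjusted p = 4.59e-05) led. Neurod6 was 1.59-fold and Neurod1 1.71-fold above Input there, beside 1.72-fold and 3.13-fold for eIF4E over the same Input libraries. Nhlh1 stood at 0.531 of Input, a call lost after rescaling to the same total (adjusted p = 0.0511). Neurog1 and Neurog2 did not pass (1.10-fold and 1.07-fold), nor did Neurod4. Both Neurogenins were called higher in IgG when all totals were made equal (log2 0.72, adjusted p = 0.00123, and 0.68, adjusted p = 0.000528) and under quantile normalization (0.29, adjusted p = 0.0371, and 0.25, adjusted p = 0.0199), and turned negative by median-of-ratios scaling.

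**Figure D4:**
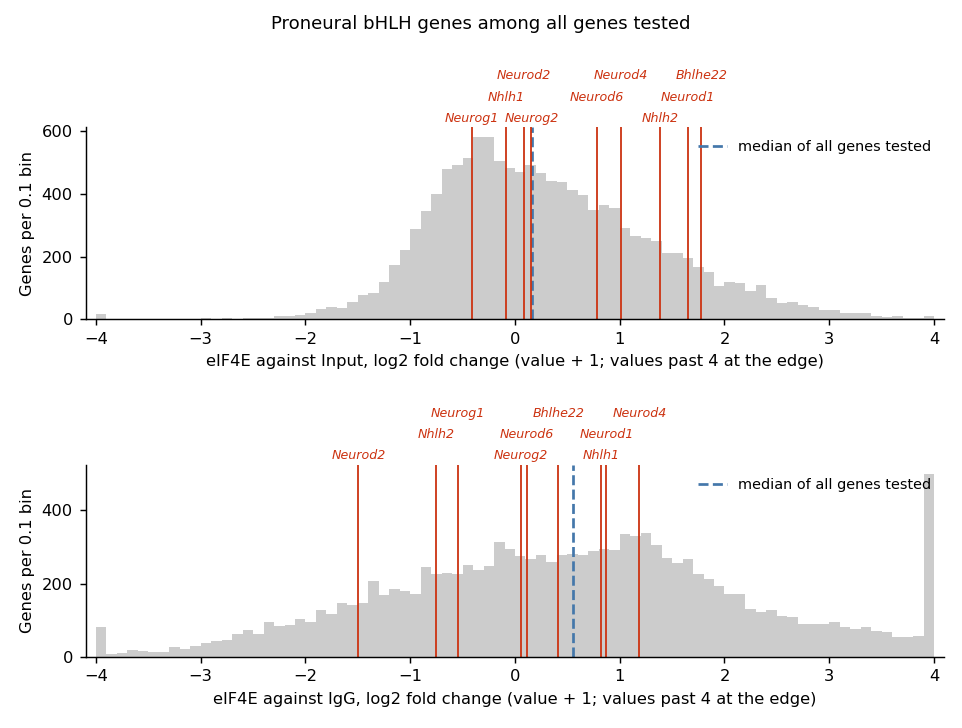
Distribution of log2 differences (value + 1) over the 12769 genes tested, in bins of 0.1, with the members as red lines and the median of all genes dashed. Against Input the members run from −0.41 to 1.78, and against IgG from −1.49 to 1.19.

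Markers of cell types, members left out, are given as the setting of these values. Their counts stand beside 43.3% of all genes tested higher in eIF4E than in Input and 30.6% lower. Of 7 intermediate progenitor markers 6 were higher in eIF4E than in Input and none lower, and they summed to 1600 and 1639 against 1100 and 1096, with 1075 in IgG. Of 10 cortical neuron markers 6 were higher and 2 lower. Their sum was lower in eIF4E (1221 and 1164 against 1391 and 1412, 1235 in IgG), but without Tubb3 it was higher (599 and 608.1 against 445.3 and 432, 1004 in IgG). Radial glial markers went both ways, with 6 of 12 higher and 5 lower. They summed to 1521 and 1406 against 1702 and 1730, with 1200 in IgG, and without Hes5 the groups overlapped (1221 and 1101 against 1102 and 1119). Erythroid markers were all lower, 7 of 7 tested (6052 and 4532 against 16110 and 17570, 2321 in IgG), and of 6 microglial markers tested 4 were lower and none higher (24.25 and 19.59 against 49.59 and 58.68, 21.97 in IgG). The endothelial and mural sum was lower (38.76 and 40.71 against 70.37 and 73.36, 20.45 in IgG) through Cldn5, and without it was 16.93 and 16.17 against 12.01 and 14.09; 1 of 6 was higher and 2 lower. Interneuron markers summed to 64.31 and 61.07 in eIF4E, 60.65 and 63.49 in Input and 182.8 in IgG, with 5 of 8 tested higher than Input and 3 lower. Cajal-Retzius markers summed to 42.95 and 42.28, 33.93 and 34.63, and 56.17, with 3 of 6 tested higher and 1 lower. Without Ebf2 the groups overlapped (33.28 and 31.58 in eIF4E against 31.14 and 31.7 in Input). Meningeal markers summed to 95.24 and 91.18, 134 and 115.2, and 274.4, with 2 of 5 tested higher and 3 lower. Without Col3a1 these groups overlapped too (52.74 and 55.95 against 56.9 and 53.71). The part of these cell types in the members' differences was not tested.

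The dimerization partners were followed next. Tcf4 measured 738.09 and 793.75 in eIF4E against 142.78 and 141.21 (5.36-fold, log2 2.42, SE 0.05, limma adjusted p = 5.18e-05). Tcf12 went from 4.55 and 4.87 to 21.65 and 23.36 (4.12-fold, adjusted p = 9.67e-05). Tcf3, which encodes E12 and E47, did not pass (104.36 and 102.01 against 108.78 and 107.54; adjusted p = 0.227). Its direction turned under quantile normalization and after rescaling to the same total. By median-of-ratios scaling it was called lower (log2 −0.39, adjusted p = 0.00132), and at the same total higher (0.17, adjusted p = 0.0276). Of the 3 E protein genes, 2 were thus higher than Input and none lower in the fit as reported, against 43.3% and 30.6% of all genes. IgG held 936.56 for Tcf4, 16.89 for Tcf12 and 145.62 for Tcf3, so that Tcf4 and Tcf3 were lower in eIF4E than in IgG and Tcf12 was 1.31-fold higher (adjusted p = 0.0186). Dropping eIF4E replicate 2 ended the Tcf12 call (adjusted p = 0.0705) and after rescaling to the same total (0.617).

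The Id inhibitors split. Id4 rose from 17.45 and 17.44 in Input to 49.35 and 48.55 in eIF4E (2.71-fold, limma adjusted p = 9.01e-05). Id1 (14.07 and 12.22 against 24.23 and 26.93) and Id3 (26.35 and 21.92 against 39.43 and 40.72) fell, to 0.532 and 0.61 of Input. Id2 did not pass (59.9 and 48.7 against 62.18 and 65.68, adjusted p = 0.113), though it was lower without eIF4E replicate 1 (adjusted p = 0.017) and by median-of-ratios scaling (0.00605). Thus 1 of 4 rose and 2 fell, against 43.3% and 30.6% of all genes. All 4 were higher in eIF4E than in IgG, as were 53.1% of all genes. In IgG, Id1 was listed at 0 and Id2, Id3 and Id4 measured 33.26, 13.12 and 30; the call of Id2 was lost after rescaling to the same total (adjusted p = 0.0544).

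Of the 6 Hes and Hey genes, most of which encode repressors that act below Notch, 5 fell against Input and none rose, while 30.6% of all genes fell and 43.3% rose, with a median log2 difference of −0.41 against 0.16 for all genes. Hes1 and Hes5, the main effectors in radial glia, stood at 0.267 and 0.502 of Input. Hes6, which counters Hes1 and is itself switched on by Neurogenins, was 0.766 of Input, but turned to log2 0.06 under quantile normalization. Hey1 was 0.872 of Input, and turned to log2 0.04 after rescaling to the same total. The count was 3 of 6 without eIF4E replicate 1, without Input replicate 1 and without Input replicate 2. Among the other neural bHLH genes listed, Atoh8 fell to 0.617 of Input and Bhlhe40 to 0.801 (limma adjusted p = 0.00459 and 0.0247). The Bhlhe40 call was lost without any 1 of the 4 eIF4E and Input libraries (adjusted p = 0.0552 to 0.104) and after rescaling to the same total (0.317). In IgG against Input all 6 Hes and Hey genes were lower, beside 50.3% of all genes. Their median log2 difference there was −1.24, against −0.43 for all genes. Hes1, Hes5, Hes6 and Hey1 stood at 0.531, 0.799, 0.339 and 0.705 of Input in IgG. Against IgG, 4 of the 6 Hes and Hey genes were higher in eIF4E and 2 lower, shares near those of all genes (53.1% and 30.6%), and quantile normalization left 1 higher.

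Genes described as targets of proneural factors in cortex came next: 15 of 20 tested rose and 4 fell against Input, beside 43.3% and 30.6% of all genes, with a median log2 difference of 0.69. The RNA-binding protein gene Elavl2 and the neuronal transcription factor gene Sox11 had the largest rises, at 6.53-fold and 6.07-fold. The cell cycle inhibitor gene Cdkn1c, at 0.286 of Input, and the neuronal tubulin gene Tubb3, at 0.611, were lowest. The lone IgG library stood further above Input for Elavl2 (11.1-fold) and Sox11 (12.7-fold), and at 0.422 of Input for Cdkn1c and 0.240 for Tubb3. The list's median log2 difference in IgG against Input was 0.71, against −0.43 for all genes. Against IgG this list had 9 higher and 8 lower, beside 53.1% and 30.6% of all genes. It shares Eomes, Insm1, Gadd45g, Btg2, Mfng and Elavl4 with the intermediate progenitor markers. Tbr1, Tubb3 and Dcx are also among the cortical neuron markers, and Ebf2 and Ebf3 among the Cajal-Retzius markers, so these counts are not separate observations. Of 16 genes whose products modify or assist proneural proteins, 10 rose against Input and 3 fell, beside the same 43.3% and 30.6% (median log2 1.08). On the value + 1 scale they ran from the corepressor gene Runx1t1 (6.84-fold) and the deubiquitinase gene Usp9x (5.58-fold) to Cdk2 (0.749 of Input) and Cdk1 (0.695). Input was low for Runx1t1 (0.99 and 1.43) and Usp9x (1.76 and 2.46), so these folds depend on the added 1. With a pseudocount of 5 the log2 differences of Runx1t1 and Usp9x were 1.62 and 1.58, against 2.77 and 2.48 in the reported fit. Whether both still ranked highest there was not examined. In IgG against Input the median log2 of the 16 genes was 1.18. Runx1t1 stood there at 9.0-fold, Usp9x at 4.75-fold, Cdk2 at 0.432 of Input and Cdk1 at 0.414. Against IgG 6 of the 16 were higher and 7 lower, beside 53.1% and 30.6%.

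**Figure D5:**
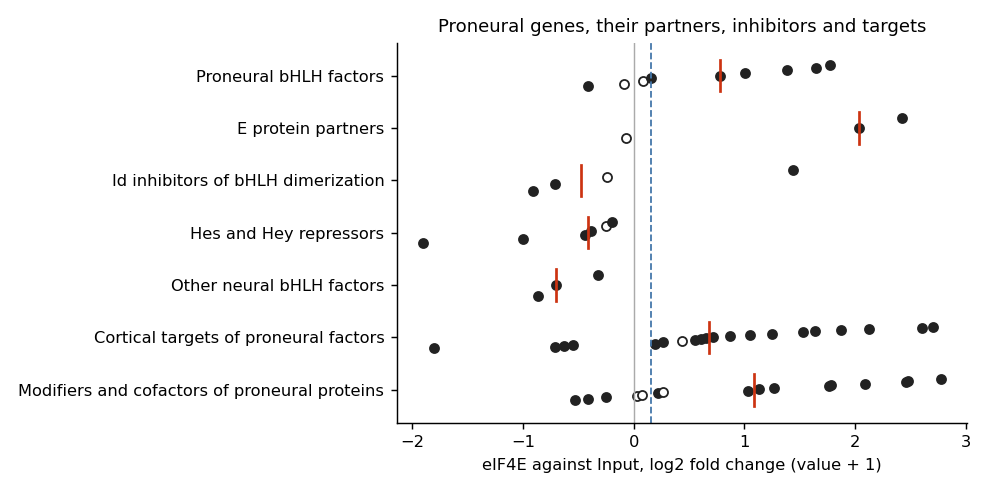
Log2 difference (value + 1) of eIF4E against Input for the tested genes of each list; filled points have a limma adjusted p under 0.05, red bars are list medians and the dashed line is the median of all genes. The Hes and Hey and other bHLH genes lie below 0, whereas Tcf4 and Tcf12 lie above 2.

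The genes most like 3 of the members in their profile over the 5 libraries were taken from 6138 more abundant genes, by the Euclidean distance between log2(value + 1) centred on each gene's mean. Srsf7, a splicing factor gene, was closest to Neurog2, at a distance of 0.0329, with 374.24 and 398.42 in eIF4E, 350.27 and 344.15 in Input and 378.81 in IgG. Foxred1 (0.0589) and Ywhag (0.0735) followed. Closest to Neurod1 was Hnrnph2, an RNA-binding protein gene, at a distance of 0.126 (90.7 and 88.71 in eIF4E, 28.32 and 30.15 in Input, 52.98 in IgG), then Tra2a (0.194) and Rnf20 (0.206). Closest to Neurod6 was Crkl at 0.0661, then Rbbp7 (0.076) and Cnot8 (0.0818). The profiles rest on 5 libraries in 3 groups, and the distances are a description only.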

How the data were processed

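The authors deposited 1 table of gene abundances, an RSEM expression signal that is never negative, is not on a log scale and carries 2 decimals; the header does not say whether it is TPM or FPKM. The tools were RSEM 1.3.3 and STAR 2.7.9a, with mm10 as the build, per the submitters' processing notes. For the annotation and any row filter, the version is not stated there. Libraries were made by Smart-seq2 from poly(A) RNA, per the labels' protocols, so neither strand nor molecules were marked.

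Of 50161 rows, 286 exact repeats were dropped. A gene was tested if 2 or more of the 5 libraries reached 1, which kept 12769. The test was limma 3.58.1 (R 4.3.3) on log2(value + 1) with 3 groups, 2 residual degrees of freedom and a trended empirical Bayes prior. P-values are two-sided, adjusted by Benjamini-Hochberg across all tested genes, and called under 0.05. The fit was tested on simulated data. The members and lists were chosen with earlier results of these data known. Named outside the members were all E protein and Id genes, the 2 highest and 2 lowest called genes of every other list, and the 3 nearest genes of 3 members. A result on a withheld item is not reported here. Alternatives covered scaling, pseudocount (0.1 and 5), filters, the trend, left-out libraries and a replicate block. Sequences and coordinates are from RefSeq tables of GRCm38.p6, the assembly of mm10.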

Additional observations from a re-analysis of the deposited data

How the results depend on the processing

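For eIF4E against Input, median-of-ratios scaling gave 3 members lower (1 in the reported fit), 1 E protein gene lower (0), 5 modifiers lower (3) and a median of 0.46 for the 9 members (0.78). It turned Neurog2 (−0.16), Neurod2 (−0.23), Srsf7 (−0.17), Foxred1 (−0.10) and Ywhag (−0.11). Quantile normalization gave a median of 0.45 and turned Tcf3 (0.024) and Hes6 (0.061). Rescaling to the same total gave 0 members, 3 Hes and Hey genes and 1 modifier lower and a median of 1.02, and turned Nhlh1 (0.15), Tcf3 (0.17) and Hey1 (0.041). A pseudocount of 5 gave a median of 0.36. Without a filter 1 other bHLH gene was higher (0), and requiring values above 0 in all 5 libraries left 1 Id gene lower (2).

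For eIF4E against IgG, the median of the 9 (0.12) was 0.071 by median-of-ratios scaling, −0.52 under quantile normalization and −0.23 at the same total. Quantile normalization gave 2 members higher (4), 5 lower (3), 1 Hes or Hey gene higher (4) and 2 other bHLH genes lower (1), and turned Neurog2 (−0.076), Neurod4 (−0.52) and Neurod6 (−0.55). The same total gave 5 members lower, 0 E protein genes higher (1) and 2 other bHLH genes lower, and turned Neurog2 (−0.29) and Neurod6 (−0.23). Without a filter 2 other bHLH genes were higher (1). With values above 0 in all 5 libraries it was 0, 4389 genes were higher in all (6785), and the members' median relative to all genes turned from −0.44 to 0.088; fewer genes are tested there.

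For IgG against Input, the median (0.66) was 0.38 by median-of-ratios scaling, 0.97 under quantile normalization and 1.25 at the same total. Median-of-ratios scaling turned Neurog1 (−0.14) and Neurog2 (−0.18), and Neurod4 turned under quantile normalization (0.97) and at the same total (0.0062). Members higher were 8 (5) under quantile normalization, members lower 0 (1) at the same total, and all genes lower 4072 (6428) with values above 0 in all 5. The median level of the 9 became 37.8 in eIF4E (41.6), 43.2 in Input (38.0) and 36.1 in IgG (38.6) by median-of-ratios scaling, and 33.1 in Input and 50.6 in IgG at the same total. The cause of these shifts was not tested.

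Leaving out 1 library at a time gave 3 to 4 Hes and Hey genes lower than Input and 0 to 1 E protein genes higher than IgG (0 without eIF4E replicate 2), and moved Nhlh1 against Input between −0.20 and 0.028 (the latter without eIF4E replicate 1). Neurod1, Neurod6, Bhlhe22 and Nhlh2 kept their direction and call against Input in all 14 alternatives, whereas Neurog2 lost its call in 6 and turned in 1. With the replicate block 5 members were higher and 1 lower, and over all genes 5401 and 3749 (5535 and 3906); among members the block changed the call of Neurog2 only (adjusted p = 0.111). Whether same-numbered eIF4E and Input libraries came from the same lysate is not stated. Their deviations correlated at 0.02 across genes, which cannot decide it with 2 libraries in each group. Depth is unknown, so what it limits could not be given.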

Other observations

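Proneural and related bHLH genes of other brain regions gave little or no signal. Neurog3, the third Neurogenin, read 0.28 and 0.06 in eIF4E, 0.18 and 0.1 in Input and 0 in IgG. Atoh1, Ptf1a, Bhlhe23 and Ferd3l were listed at 0 in all 5 libraries. Olig1 reached 1.01 in 1 eIF4E library and 0.44 in the other, against 0.38 and 0.26 in Input. Olig2 lay between 0.19 and 0.49 in the eIF4E and Input libraries. None of these passed the expression filter, and no comparison between groups was made for them.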
